A study of Mus musculus with 8 samples.

Results

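The 5 cyclin-dependent kinase inhibitor genes described here, Cdkn1a, Cdkn1b, Cdkn1c, Cdkn2c and Cdkn2d, were chosen by symbol and are 5 of the 27998 gene rows of the count tables. They were measured by single-cell RNA-seq in mouse cortex of the CD1 strain at embryonic day 16.5. The ShhN group comprised 4 samples from embryos whose cortex had received a ShhN plasmid by in utero electroporation at E13.5, and the WT group comprised 4 samples from wild type littermates. ShhN names the part of the sonic hedgehog protein that signals, and in utero electroporation delivers plasmid to progenitors that line the ventricle of the living embryo. Electroporation reaches a fraction of the cells, so the ShhN library mixes cells with and without plasmid, and the labels do not say whether the WT littermates received another plasmid. The 4 samples of a group were deposited as 1 matrix, so each group is 1 library and no difference between the groups has a replicate check or a test. Intervals given below are exact 95% intervals that cover counting error only.

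Cyclin-dependent kinase inhibitors slow or stop the cell cycle. The Ink4 proteins, encoded here by Cdkn2c and Cdkn2d, bind Cdk4 and Cdk6 and keep D cyclins from activating them. The Cip and Kip proteins, encoded by Cdkn1a, Cdkn1b and Cdkn1c, bind cyclin and kinase complexes more broadly, those with Cdk2 included. In the developing cortex Cdkn1b and Cdkn1c are known for roles in cell cycle exit and neuronal migration, Cdkn1c is an imprinted gene expressed mainly from the maternal allele, and Cdkn1a is a classical target of p53.

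The genes lie on 5 chromosomes in the GRCm38 build with the GENCODE M21 annotation. Cdkn1a spans chr17:29090976-29100727 on the plus strand and Cdkn1b spans chr6:134920401-134925513 on the plus strand. On the minus strand, Cdkn1c spans chr7:143458339-143461050, Cdkn2c spans chr4:109660876-109667189 and Cdkn2d spans chr9:21288410-21291407. An antisense gene, Gm44732, overlaps Cdkn1c and had 0 UMIs, and AC167363.2 overlaps Cdkn1a on the opposite strand and is not a row of the count tables.

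Promoter windows of 300 bases, 250 before and 50 after a start, came from RefSeq in the GRCm38.p6 build. There were 2 windows each for Cdkn1a and Cdkn2c and 1 each for Cdkn1b and Cdkn2d. No window was available for Cdkn1c, so its promoter was not searched. The first windows are shown because Cdkn2c and Cdkn2d rose in dividing Eomes progenitors, as described below, while Cdkn1b did not pass the size rule there. Capitals mark matches, on either strand, to the GC box with the letters GGGCGG, to the CCAAT box and, named only, to the p53 half-site.
Cdkn2c, chr4:109666707-109667006, minus strand: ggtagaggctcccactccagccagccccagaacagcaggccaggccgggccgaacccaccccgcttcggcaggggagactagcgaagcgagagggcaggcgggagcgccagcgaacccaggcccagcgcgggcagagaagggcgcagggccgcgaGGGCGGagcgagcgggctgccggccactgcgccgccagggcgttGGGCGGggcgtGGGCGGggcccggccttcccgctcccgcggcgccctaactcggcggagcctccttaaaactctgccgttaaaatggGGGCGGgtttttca
Cdkn2d, chr9:21291160-21291459, minus strand: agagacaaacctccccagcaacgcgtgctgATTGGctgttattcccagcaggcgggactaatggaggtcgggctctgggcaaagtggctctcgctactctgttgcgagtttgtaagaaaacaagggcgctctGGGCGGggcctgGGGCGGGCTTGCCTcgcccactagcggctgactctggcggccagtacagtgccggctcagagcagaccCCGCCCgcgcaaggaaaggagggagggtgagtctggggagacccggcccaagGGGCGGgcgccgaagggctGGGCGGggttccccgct
Cdkn1b, chr6:134920151-134920450, plus strand: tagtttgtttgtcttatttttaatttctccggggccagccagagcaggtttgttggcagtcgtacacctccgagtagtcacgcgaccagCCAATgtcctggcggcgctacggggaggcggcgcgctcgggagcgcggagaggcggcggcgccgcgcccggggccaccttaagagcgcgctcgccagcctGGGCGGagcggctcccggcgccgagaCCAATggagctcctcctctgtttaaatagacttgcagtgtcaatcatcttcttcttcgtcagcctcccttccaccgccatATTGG
Cdkn1a, chr17:29090729-29091028, plus strand: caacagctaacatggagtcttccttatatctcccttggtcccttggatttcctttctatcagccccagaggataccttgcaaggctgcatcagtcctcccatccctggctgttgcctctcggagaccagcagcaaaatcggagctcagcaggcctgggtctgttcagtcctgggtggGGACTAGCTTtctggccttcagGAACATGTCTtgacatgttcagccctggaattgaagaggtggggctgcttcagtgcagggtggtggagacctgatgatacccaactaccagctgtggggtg
The Cdkn2c window held 4 GC boxes and the Cdkn2d window 5 GC boxes, 1 CCAAT and 1 p53 half-site that overlaps a GC box. The Cdkn1b window held 3 CCAAT and 1 GC box, and the Cdkn1a window held 2 p53 half-sites. The second windows, not printed, held 2 GC boxes and no p53 half-site for Cdkn1a, and 1 CCAAT and no GC box for Cdkn2c. Of 32851 mouse windows of this length, 35.7% held a GC box, 37.4% CCAAT and 8.36% a p53 half-site. In all, 7 motifs were searched. The first search found no match in the windows listed above to the E2F motifs (TTTCCCGC or TTTGGCGC, in 1.56% of windows) or the GLI motif (GACCACCCA, in 0.253%). Nor did it find the CHR (TTTGAA, in 17.9%) or the full p53 site, named only (in 3 windows of all). With so few matches to the full p53 site in any window, its absence here says little about p53 sites of Cdkn1a. The GC box and the p53 half-site were added after that search had been seen, so their matches are a description chosen with the sequences in view.

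The ShhN library held 69470062 UMIs and the WT library 63760199, with 8075 ShhN and 6924 WT cells kept at a median of 6683 and 6279 UMIs per cell, and 71 cell barcodes occurred in both libraries. Cells were sorted into classes by UMIs of marker genes, none of them an inhibitor. The 7 classes with at least 50 cells in both libraries were compared, with 247 ShhN and 131 WT radial glia, 967 and 681 Eomes progenitors, 1217 and 923 newborn neurons, 208 and 282 migrating neurons, 2391 and 2119 upper layer neurons, 1855 and 1505 deep layer neurons, and 594 and 790 GABAergic cells. Marker genes not used for sorting were checked in each class. In radial glia 6 of 6 radial glia check genes were detected in both libraries and summed to 8372 CPM (UMIs of a gene scaled to 1000000 UMIs of the cells) in ShhN and 13983 CPM in WT, against 171 and 164 CPM in deep layer neurons. Eomes progenitors held more of the radial glia check genes, at 1429 CPM in ShhN and 2581 CPM in WT, than of their own, at 962 and 1343 CPM. GABAergic cells also held excitatory neuron check genes, at 893 CPM in ShhN and 2008 CPM in WT, so these classes are named by their gate genes. Globin and other erythroid check genes, which blood cells carry, summed to 4410 CPM in ShhN and 8472 CPM in WT over all cells, and to 1627 and 20922 CPM in radial glia. Their part in the radial glia values was not tested. A cell with at least 1 UMI of Mki67 or Top2a, which mark dividing cells, is called dividing here, and cells without one can include dividing cells in which the UMI was missed. Dividing cells made up 16.1% of ShhN and 5.36% of WT cells, 40.7% and 16.2% of Eomes progenitors, and 35.2% and 2.41% of GABAergic cells. In barcodes with 1 to 50 UMIs, which hold free RNA, Top2a stood at 85.6 CPM in the ShhN and 12.3 CPM in the WT library. A stricter call of 2 UMIs was applied only to the ratios of dividing over other Eomes progenitors, and the dividing shares were not recomputed with it. The part of free Top2a in the dividing calls was not tested further.

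The size rule, which stands in for a test, asked for 50 or more UMIs on the sides of a comparison together, a log2 ratio of 1 or more (or -1 or less) and an interval whose nearer bound lay 0.5 or more from 0. Of 35 pairs of a member and a class, 30 had enough UMIs, and 6 were higher and 1 was lower in ShhN. Of all measured genes, 0.97% in radial glia, 2.63% in Eomes progenitors, 1.71% in newborn neurons, 0.147% in migrating neurons, 0.759% in upper layer neurons, 0.283% in deep layer neurons and 6.87% in GABAergic cells were higher. The lower shares, in the same order, were 1.3%, 1.81%, 2.08%, 0.228%, 0.675%, 0.717% and 4.97%. In cells without Mki67 or Top2a, 0 of 22 measured pairs were higher and 0 lower, but 4 of the 7 pairs past the rule no longer reached 50 UMIs there. In those cells the share of all genes past the rule in either direction, in that order, was 1.6%, 1.59%, 2.35%, 0.33%, 1.2%, 0.93% and 2.35%. Summed over the 5 genes, the level was 296 CPM in ShhN and 296 CPM in WT cells. Within that sum the Ink4 genes stood at 89.0 CPM in ShhN against 59.5 CPM in WT, and the Cip and Kip genes at 207 CPM in ShhN against 237 CPM in WT.

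**Figure D1:**
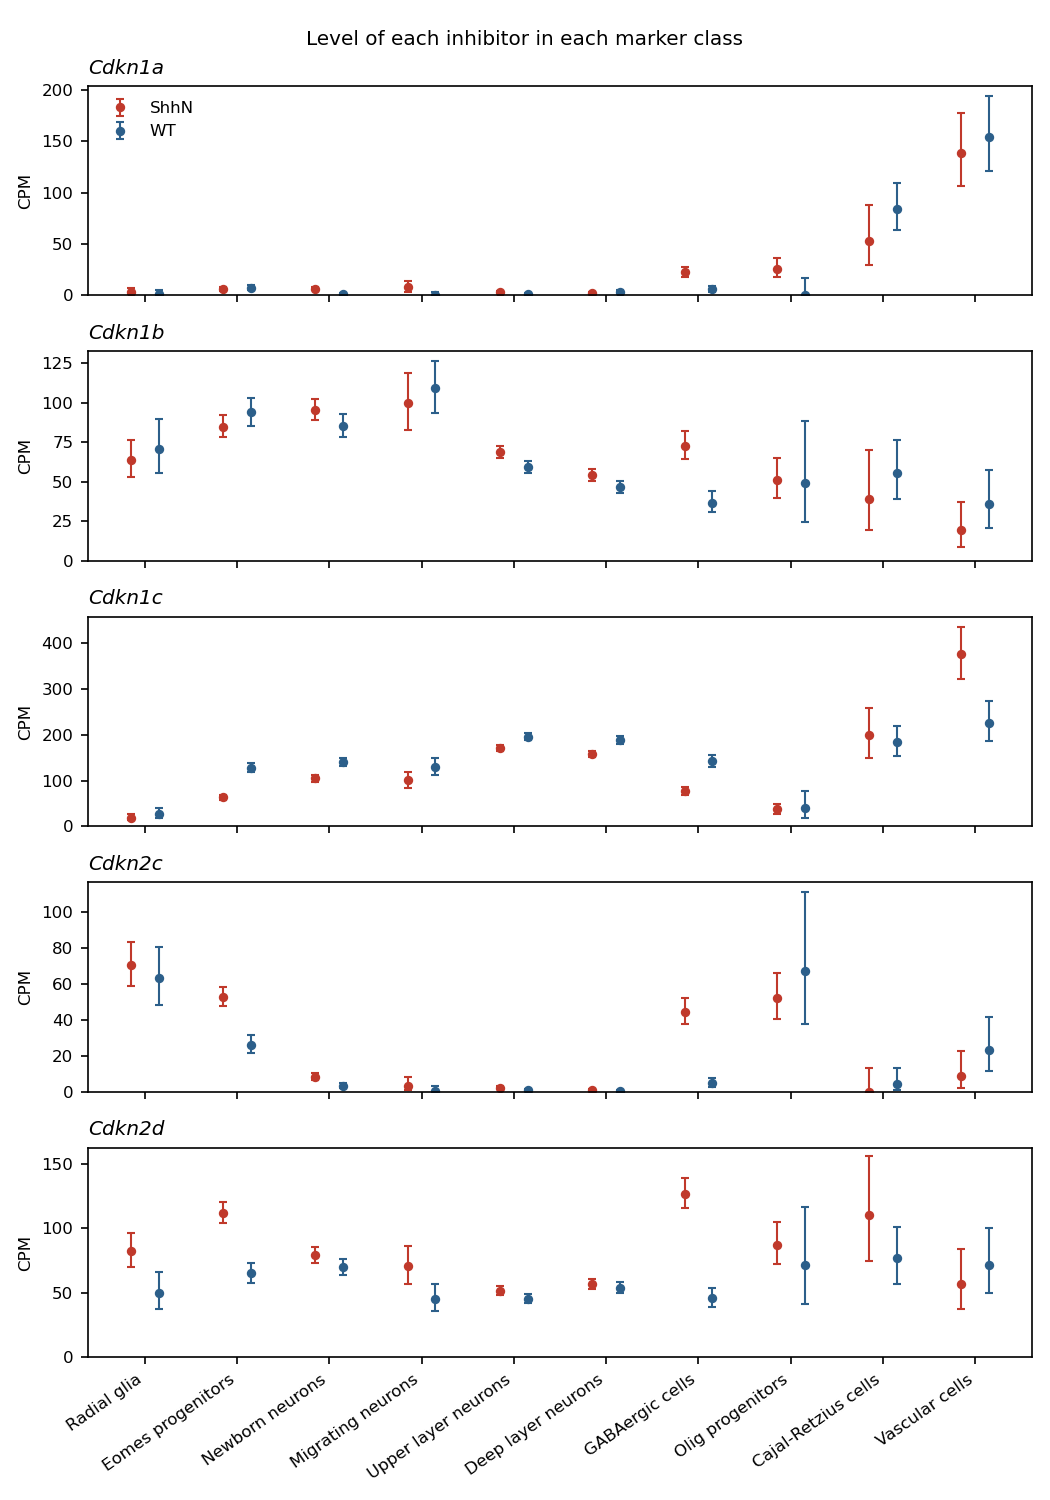
Level of each inhibitor (CPM, vertical axis from 0) in 10 marker classes of the ShhN (red) and WT (blue) library, with exact Poisson 95% intervals. Cdkn2c was highest in progenitor classes, Cdkn1c in vascular cells, Cajal-Retzius cells and layer neurons, and Cdkn1a in vascular and Cajal-Retzius cells.

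Cdkn2c, which encodes an Ink4 inhibitor of Cdk4 and Cdk6, was the member that rose over all cells. It had 927 UMIs in ShhN and 276 in WT cells, or 16.2 CPM (interval 15.1 to 17.2) and 5.94 CPM (5.26 to 6.68). The log2 ratio was 1.45 (1.25 to 1.64), where 4.7% of 13032 measured genes passed the rule in either direction. When the ShhN classes and dividing cells were weighted to the mix of the WT library, the ratio was 0.33. The call also ended in cells without Mki67 or Top2a, at 0.45.

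Across classes, Cdkn2c was high where many cells were dividing, but it did not follow that share strictly. WT GABAergic cells, of which 2.41% were dividing, had 4.76 CPM (2.72 to 7.73). WT upper layer neurons, of which 2.45% were, had 0.893 CPM (0.476 to 1.53), an interval below that of the GABAergic cells. WT newborn neurons, of which 4.66% were, had 3.24 CPM (2.01 to 4.96), which overlaps the GABAergic interval. Radial glia, the stem cells of the cortex, had 70.4 CPM in ShhN and 63.1 CPM in WT, and deep layer neurons had 1.12 and 0.437 CPM. In ShhN the level was 52.9 CPM in Eomes progenitors, 52.2 CPM in Olig progenitors (150 cells) and 44.5 CPM in GABAergic cells, whose intervals overlap. In WT it was 26.3 CPM in Eomes progenitors, and the 20 WT Olig cells at 67.3 CPM overlapped radial glia. Over the 14 class and library values, the named genes with the most similar log2 levels were Cdca3 (r = 0.996), Plk1, Casc5, Dlgap5 and Ccna2, at r of 0.993 or more, among 10430 genes searched. These points share 2 libraries.

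**Figure D2:**
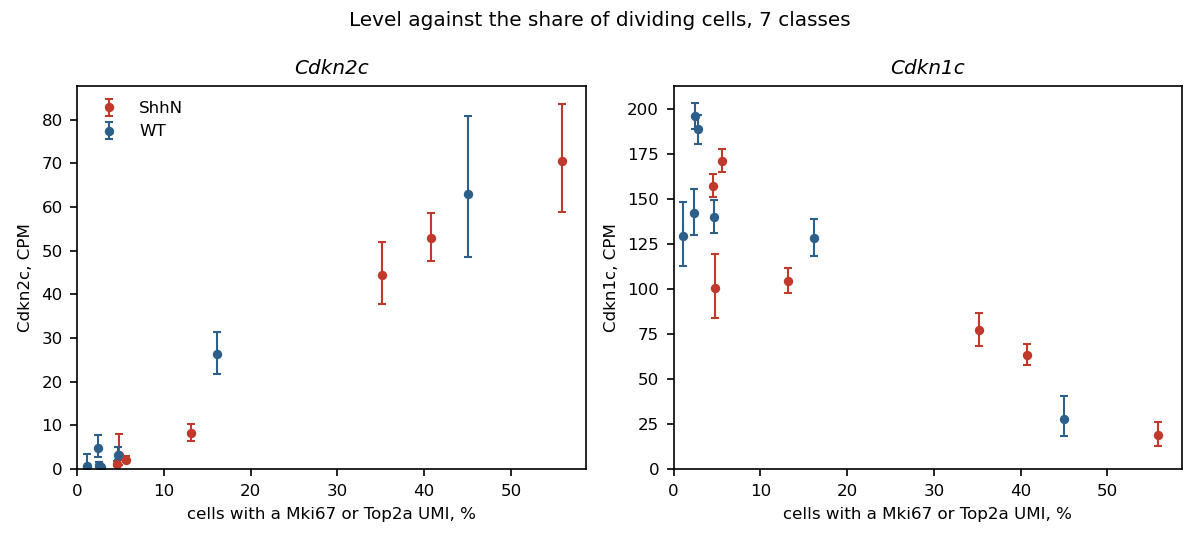
Level of Cdkn2c (left) and Cdkn1c (right) in CPM against the percentage of dividing cells, for 7 classes in the ShhN (red) and WT (blue) library, with Poisson 95% intervals. Cdkn2c stood at 52.9 CPM in ShhN Eomes progenitors, of which 40.7% were dividing, and at 26.3 CPM in WT ones, of which 16.2% were.

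Within a library, Cdkn2c was concentrated in dividing cells. Dividing Eomes progenitors had 338 UMIs and 99.4 CPM in the ShhN library, against 38 UMIs and 10.3 CPM in nondividing ones. The WT library had 79 UMIs and 76.9 CPM in dividing cells, against 43 UMIs and 11.9 CPM in nondividing cells. The log2 ratios of dividing over nondividing cells were 3.28 (2.79 to 3.80) in ShhN and 2.69 (2.14 to 3.26) in WT. In the Eomes class, 2 members passed the rule in ShhN and 3 in WT, where 6.15% and 4.64% of all genes did. Cdkn2c and Cdkn2d passed as higher in dividing cells of both libraries. Cdkn1c passed in WT as lower in dividing cells, at -1.22 (-1.61 to -0.84). In ShhN the Cdkn1c ratio was -0.72, which did not pass. In radial glia the Cdkn2c ratio was 2.93 in ShhN and 2.33 in WT, with 4.21% and 3.8% of all genes past the rule.

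Between the libraries, Cdkn2c rose in Eomes progenitors at a log2 ratio of 1.01 (0.71 to 1.32), and 7 of 11 settings kept the call. The call ended with at least 4500 UMIs per cell (0.96), with doublets kept (0.99), with free RNA subtracted (0.99) and in cells without Mki67 or Top2a. It also ended without the 1 ShhN cell with most Cdkn2c UMIs, at 0.98 (0.69 to 1.29). In dividing Eomes cells alone the ratio was 0.37 (0.01 to 0.74), with 1.19% of all genes past the rule, and in nondividing ones -0.22 (-0.88 to 0.45). It also rose in newborn neurons, which had 68 UMIs in ShhN and 21 in WT, at a ratio of 1.34 (0.61 to 2.12). That call ended with equal weight per cell (0.83), with thinned cells and with free RNA subtracted (1.24), and 7 of 11 settings kept it. Of those 68 UMIs, 56 lay in dividing cells, and the nondividing cells had 12 UMIs in ShhN and 12 in WT. After thinning every cell to 4500 UMIs, 15.8% of ShhN and 8.20% of WT Eomes progenitors had a Cdkn2c UMI, against 23.2% and 11.6% unthinned. In deep layer neurons, thinned, it was 0.586% in ShhN and 0.154% in WT, and free RNA held 10.1 CPM in ShhN (12 UMIs) and 1.90 CPM in WT (2 UMIs).

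GABAergic cells, inhibitory neurons and their precursors with Dlx or Gad genes, had a higher Cdkn2c ratio than radial glia, Eomes progenitors and newborn neurons, the other classes in which the gene reached 50 UMIs. The level was 44.5 CPM in ShhN (161 UMIs) and 4.76 CPM in WT (16 UMIs), a ratio of 3.22 (2.48 to 4.07), and 2.10 in cells with at least 4500 UMIs. The median depth was 5262 UMIs in ShhN and 3707.5 UMIs in WT cells of the class. Its makeup differed too. Radial glia check genes summed to 800 CPM in ShhN and 261 CPM in WT, excitatory neuron check genes to 893 and 2008 CPM, and pan neuronal genes to 3762 and 5436 CPM. Their part in the ratio was not tested. Dividing cells made up 35.2% of the class in ShhN and 2.41% in WT. At the WT mix of dividing cells the Cdkn2c ratio was 1.26. Dividing GABAergic cells had 84.8 CPM in ShhN (145 UMIs) and 114 CPM in WT (15 UMIs in 19 cells). Nondividing GABAergic cells held 16 UMIs in ShhN and 1 in WT.

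Cdkn2d, the other Ink4 gene, was broader. Over all cells it stood at 72.8 CPM in ShhN and 53.6 CPM in WT, a log2 ratio of 0.44 (0.37 to 0.51) that did not pass the rule. It was measured in all 7 classes at levels from 51.8 to 127 CPM in ShhN and from 45.3 to 69.8 CPM in WT, with 51.8 CPM in ShhN and 45.5 CPM in WT upper layer neurons, where Cdkn2c had 2.16 and 0.893 CPM.

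Free RNA held Cdkn2d at 66.3 CPM in ShhN and 45.6 CPM in WT. In Eomes progenitors Cdkn2d rose in dividing cells. Dividing Eomes progenitors had 175 CPM in ShhN and 119 CPM in WT, against 54.5 and 49.9 CPM in nondividing ones, and the dividing over nondividing ratio was 1.68 (1.45 to 1.92) in ShhN and 1.25 (0.91 to 1.59) in WT. In ShhN radial glia it was 2.48, and in WT 1.11 (0.18 to 2.11), which did not pass. The ratio also passed in ShhN newborn neurons (1.21), ShhN GABAergic cells (1.77) and WT upper layer neurons (1.08, where 0.649% of all genes passed). In ShhN upper layer neurons it was 0.50 and in ShhN deep layer neurons -0.41, and neither passed. ShhN over WT, Cdkn2d rose in GABAergic cells, at 127 CPM in ShhN and 46.1 CPM in WT (ratio 1.46, 1.19 to 1.73). In Eomes progenitors it was 112 and 65.1 CPM (ratio 0.78), which did not pass. Nondividing GABAergic cells had 59.3 CPM in ShhN and 44.3 CPM in WT (0.42, 0.05 to 0.79).

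Eomes progenitors with a Cdkn2c transcript held Cdkn2d at a higher share. In thinned Eomes progenitors with a Cdkn2c UMI, 48.2% in ShhN and 40.4% in WT also had a Cdkn2d UMI, against 27.3% and 20.3% of those without one. In radial glia the shares were 27.7% and 19.0% in ShhN, and 15.0% and 13.0% in WT, with 3 WT cells holding both. The difference was not limited to this pair. Eomes progenitors with a Cdkn1a UMI had Cdkn2d in 50% against 30.1% in ShhN (20 cells with Cdkn1a). In WT it was 25% against 21.9% (16 cells with Cdkn1a). These shares describe 1 library per group, and the part of dividing cells in them was not tested. The genes most like Cdkn2d over the 14 values were Tubg1 (r = 0.941), Akna, Sass6, Sapcd1 and Minos1.

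**Figure D3:**
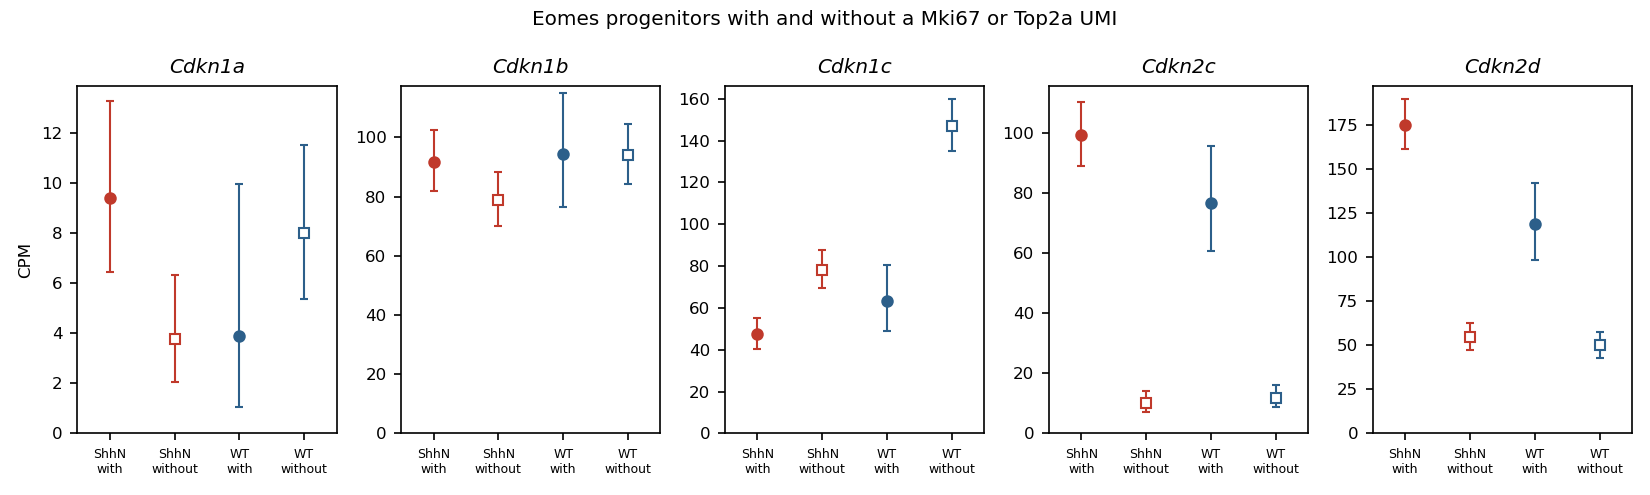
Level of each inhibitor in CPM (axes from 0) in Eomes progenitors of the ShhN (red) and WT (blue) library, with (filled) and without (open) a Mki67 or Top2a UMI, with Poisson 95% intervals. Cdkn2c and Cdkn2d were higher in dividing cells of both libraries, and Cdkn1c was highest in nondividing WT cells, at 147 CPM.

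Of the 7 classes compared, Cdkn1c was lowest in radial glia, where Cdkn2c was highest, at 18.7 CPM in ShhN and 28.0 CPM in WT. It stood at 171 and 196 CPM in upper layer neurons and at 158 and 189 CPM in deep layer neurons. The highest level was in vascular cells, at 376 CPM in 38 ShhN and 226 CPM in 50 WT cells, and the WT interval overlapped that of upper layer neurons. A single ShhN vascular cell held 75 of the 171 UMIs, and without it the level was 222 CPM (179.7 to 271), an interval that overlapped that of ShhN Cajal-Retzius cells, at 199 CPM. Over the 14 values, log2 Cdkn1c correlated with log2 Cdkn2c at r = -0.88, and the most similar genes were Mpped1 (r = 0.971), Snf8, March9, Cep170 and Atat1. Over all cells the level was 128 CPM in ShhN and 168 CPM in WT, a ratio of -0.39 (-0.43 to -0.34).

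In Eomes progenitors Cdkn1c fell, the 1 lower pair of the 30. It had 450 UMIs and 63.3 CPM (57.6 to 69.5) in ShhN, and 596 UMIs and 128 CPM (118 to 139) in WT. The log2 ratio was -1.02 (-1.20 to -0.84), close to the threshold of 1, and 5 of 11 alternative settings kept the call, with ratios from -1.17 to -0.85. The call ended when the radial glia gate was taken before the Eomes gate. That order moves Eomes cells with 8 or more UMIs of radial glia genes to radial glia. In the nondividing ones Cdkn1c was 48.3 CPM in ShhN and 178 CPM in WT. In the dividing ones it was 15.8 and 64.7 CPM (ratio -2.04, -3.10 to -1.03). The call also ended with at most 5% mitochondrial UMIs, with doublets kept, with equal weight per cell and with TMM scaling. In the same class, radial glia check genes summed to 1429 CPM in ShhN and 2581 CPM in WT, and their part in the ratio was not tested. In nondividing cells the call ended, with levels of 78.0 CPM in ShhN and 147 CPM in WT (ratio -0.91, -1.13 to -0.71). At the WT mix of dividing cells the ratio was -0.85. In dividing cells the levels were 47.3 CPM in ShhN and 63.2 CPM in WT (ratio -0.42, -0.84 to 0.02).

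The libraries also differed in cells with many Cdkn1c UMIs. In ShhN, 11 of 967 Eomes progenitors had 5 or more Cdkn1c UMIs and held 15.3% of the UMIs, with up to 11 in a cell. In WT, 33 of 681 had 5 or more and held 41.1%, with up to 18 in a cell. After thinning, 19.0% of ShhN (16.5 to 21.8) and 28.3% of WT cells (24.6 to 32.2) had a Cdkn1c UMI, against 9.50% and 8.04% of radial glia. Unthinned, the Eomes shares were 26.2% and 36.3%. Free RNA held Cdkn1c at 94.8 CPM in ShhN and 105 CPM in WT, and its part in these shares was not tested.

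The class was also split by other genes, chosen after the class values were seen. In nondividing Eomes cells with fewer than 3 UMIs of Neurod2 and Neurod6, neuronal differentiation genes, Cdkn1c was 29.9 CPM in ShhN (98 cells, 18.0 to 46.6) and 164 CPM in WT (88 cells, 132 to 200). With 3 or more such UMIs, it was 88.0 CPM in ShhN and 144 CPM in WT. With under 4 UMIs of radial glia genes it was 76.8 CPM in ShhN and 124 CPM in WT, with 4 to 7 it was 94.99 and 191 CPM, and with 8 or more 48.3 and 178 CPM. With 2 or 3 Eomes UMIs the levels were 87.4 CPM in ShhN and 114 CPM in WT, with 4 to 7 they were 62.6 and 171.5 CPM, and with 8 or more 96.0 and 162 CPM. The splits sort the same nondividing cells in different ways. The log2 ratio was below 0 in each of these subsets, from -2.46 to -0.38, and differences between subsets were not tested. In dividing cells it was 0.10 (-0.64 to 0.91) with 2 or 3 Eomes UMIs. With under 4 UMIs of radial glia genes it was 0.11 (-0.50 to 0.76). In the other dividing subsets it lay between -2.04 and -0.34.

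**Figure D4:**
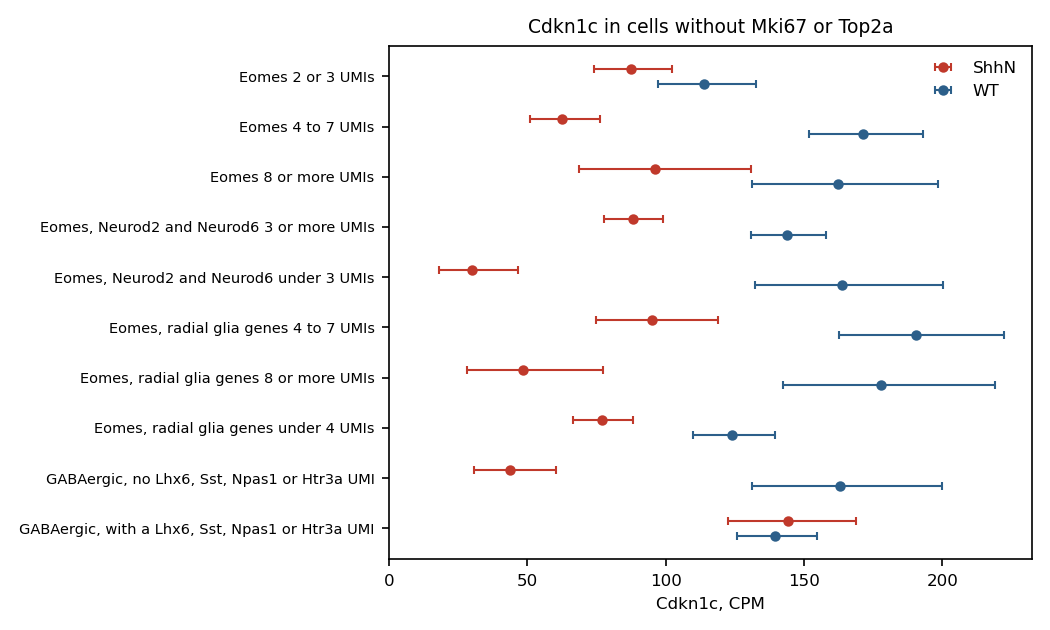
Cdkn1c in CPM (horizontal axis from 0) in cells without Mki67 or Top2a, for subsets of Eomes progenitors and GABAergic cells in the ShhN (red, above) and WT (blue) library, with Poisson 95% intervals. GABAergic cells with an interneuron marker had 144 CPM in ShhN and 139.7 CPM in WT.

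GABAergic cells showed 77.2 CPM of Cdkn1c in ShhN and 143 CPM in WT, a ratio of -0.89 (-1.10 to -0.67) that did not pass the rule. The part of the radial glia and excitatory neuron check genes given above for this class in these Cdkn1c values, subsets included, was not tested. Nondividing GABAergic cells with a UMI of Lhx6, Sst, Npas1 or Htr3a, markers of cortical interneurons, had 144 CPM in ShhN and 139.7 CPM in WT (ratio 0.05, -0.23 to 0.32). Those without had 43.7 CPM in ShhN and 163 CPM in WT (ratio -1.90, -2.50 to -1.33).

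Cdkn1b, which encodes the inhibitor p27, had 70.7 CPM in ShhN and 62.9 CPM in WT over all cells (ratio 0.17, 0.10 to 0.24). The levels were 99.7 CPM in ShhN and 109 CPM in WT migrating neurons, 95.7 and 85.6 CPM in newborn neurons, and 85.0 and 94.0 CPM in Eomes progenitors, the 3 highest classes of each library, with overlapping intervals between neighbours. No class passed the rule. In GABAergic cells it was 73.0 CPM in ShhN and 36.9 CPM in WT, a ratio of 0.98 just under the threshold. Dividing and nondividing Eomes progenitors had 91.7 and 78.8 CPM in ShhN, and 94.4 and 93.9 CPM in WT. The p27 protein, which is known to be set largely by degradation, was not measured.

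**Figure D5:**
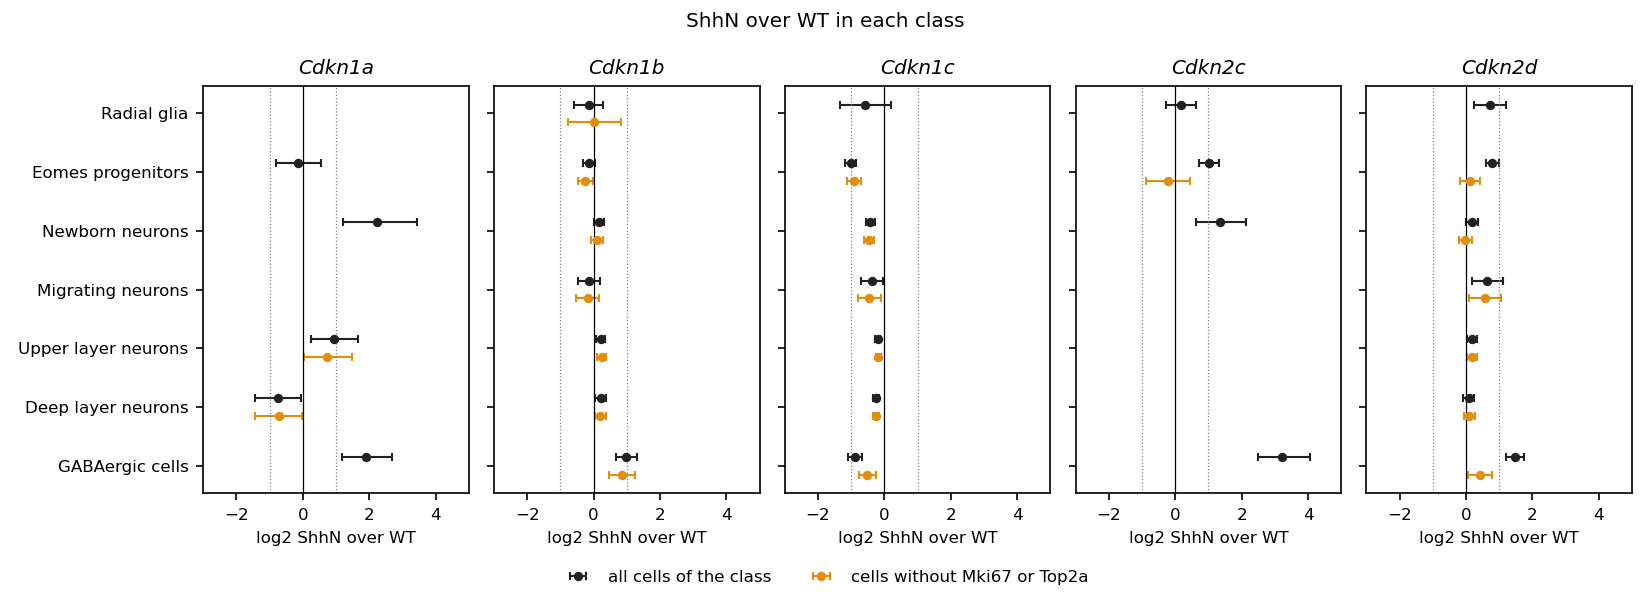
Log2 ratio of ShhN over WT for each inhibitor in 7 classes, in all cells (black) and in cells without Mki67 or Top2a (orange), for pairs with at least 50 UMIs, with exact 95% intervals. Dotted lines mark a ratio of 1 in size. Cdkn2c in Eomes progenitors stood at 1.01 in all cells and at -0.22 in cells without Mki67 or Top2a.

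Cdkn1a, a p53 target, was sparse, with 424 UMIs in ShhN and 268 in WT, or 7.40 and 5.77 CPM (ratio 0.36, 0.14 to 0.59). Its highest levels were in vascular cells, at 138 CPM in ShhN and 154 CPM in WT, and in Cajal-Retzius cells, at 53.3 and 84.1 CPM. It rose in newborn neurons, with 54 UMIs in ShhN and 9 in WT (ratio 2.23, 1.20 to 3.43). A single ShhN cell held 10 of the 54 UMIs, and the ratio was 0.70 after thinning to 4500 UMIs, 1.30 with each gate threshold raised by 1 UMI and 1.44 in cells without Mki67 or Top2a (on 37 UMIs), each of which ended the call, and 8 of 11 settings kept it. It also rose in GABAergic cells, with 81 UMIs in ShhN and 20 in WT (ratio 1.91, 1.19 to 2.70), of which 3 ShhN cells held 25. The call ended with at least 4500 UMIs per cell (1.18), with thinned cells, which held under 50 UMIs, and in cells without Mki67 or Top2a (1.10, on 43 UMIs), and 8 of 11 settings kept it. In dividing over nondividing ShhN cells, Cdkn1a had ratios of 2.39 in newborn neurons and 1.40 in GABAergic cells, where 3.84% and 16.2% of all genes passed. Without the 1 cell with most Cdkn1a UMIs in each class, which was a dividing cell, the ratios were 1.70 and 0.97, and both calls ended. In deep layer neurons the levels were 2.25 CPM in ShhN and 3.76 CPM in WT.

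Of the partners of these inhibitors, the lists of D cyclins and their kinases, later cyclins, Rb and E2F, Cdkn1b degradation and p53 response were counted over all cells, where the median of all genes was -0.08. Over all cells 2.85% of all genes were higher and 1.86% lower. Among later cyclins and kinases 7 of 7 were higher in ShhN (median 1.58), among D cyclins and kinases 2 of 5 (Ccnd2, at 596 CPM in ShhN and 154 CPM in WT, and Cdk6, at 143 and 28.9 CPM), among Rb and E2F genes 4 of 13 (Rbl1, E2f1, E2f2 and E2f8) and in Cdkn1b degradation 1 of 6 (Cks2). In the p53 list 1 of 11 measured genes, Gtse1, was higher, and the list median was -0.11. No gene of the 5 lists was lower over all cells, where 1.86% of all genes were. Dividing cells made up 16.1% of ShhN and 5.36% of WT cells, and their part in these all-cell counts was not tested. In nondividing Eomes progenitors, Cdkn2c was at 10.3 CPM in ShhN and 11.9 CPM in WT. There 3 of 5 D cyclins and kinases were higher in ShhN, where 67 of 8562 measured genes were. They were Ccnd1, Ccnd2 and Cdk6, with ratios of 1.14, 1.09 and 1.51. In dividing Eomes progenitors 0 of 5 D cyclins and kinases were higher (median 0.45), and 0 of 7 later cyclins and kinases (median 0.19). Of 7304 measured genes, 19 were higher there.

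Cells of the ShhN library with a Shh UMI were set against those without one in 3 neuron classes. No member passed the rule, where 0.516% of all genes did in newborn neurons, 0.413% in upper layer neurons and 0.456% in deep layer neurons. In upper layer neurons Cdkn1c was 168 CPM with a Shh UMI (242 cells) and 172 CPM without (ratio -0.03, -0.21 to 0.14). In newborn neurons Cdkn2c had 1 UMI in the 103 cells with Shh and 67 in the 1114 cells without. The levels were 1.30 and 8.90 CPM, a ratio of -2.77 (-8.10 to -0.25) that did not pass the rule.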

How the data were processed

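Raw UMI counts of each gene in each barcode were deposited by the authors as a single matrix for every group, holding its 4 samples together, per the file headers. The matrices were matched to the groups by their control and experimental names. Seurat 3, Cell Ranger, StringTie and mm10 are named, per the submitters' processing notes, with roles not given in the sources used here. A barcode was kept as a cell above a UMI minimum of 2291 in ShhN and 2333 in WT (set from the deepest 3000 barcodes), with at least 800 genes and at most 10% mitochondrial UMIs, and scrublet doublets (2.91% of ShhN and 4.05% of WT barcodes) were removed with scanpy 1.11.5. Classes were gated on marker UMIs per cell, and 374 ShhN and 346 WT cells stayed unassigned. Ptprz1 was dropped from the radial glia gate, and gate thresholds were set, after marker distributions were seen. UMIs of a class were added up within a library and expressed as CPM, with exact Poisson, conditional binomial and Clopper-Pearson 95% intervals. Thinning left out 1057 ShhN and 1664 WT cells. Members, lists, motifs and subsets were chosen with earlier results of these data known. Named genes were the members, list genes past the size rule and the 5 genes most correlated with each member on log2(CPM + 10). Methods were tested on simulated data. Alternatives covered cell filters, gates, depth, single cells with most UMIs of a gene, scaling, free RNA and thresholds.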

Additional observations from a re-analysis of the deposited data

Results flagged for a closer look

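Cdkn1a differed in direction between classes and between libraries, and neither difference was tested. ShhN over WT, its log2 ratio was 2.23 in newborn neurons and -0.74 (-1.45 to -0.05) in deep layer neurons. In Eomes progenitors, dividing over nondividing cells gave 1.32 (0.37 to 2.34) in the ShhN library, on 32 and 14 UMIs, and -1.05 (-3.01 to 0.46) in the WT library, on 4 and 29 UMIs. Both rest on few UMIs, and the WT interval includes 0.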

How the results depend on the processing

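No paired analysis was possible because each group's 4 samples were deposited as 1 matrix, and for the same reason no sample could be left out. Of 528 values recomputed under alternatives, 475 stayed within the main interval or within 1.5 times the main count. Of the pairs past the size rule, 6 higher and 1 lower, the higher count was 2 with at least 200 UMIs, 11 with a 1.5-fold rule and an interval that excludes 0, and 0 in cells without Mki67 or Top2a. The lower count was 2 with at least 4500 UMIs per cell and with thinned cells, 3 with the 1.5-fold rule, and 0 with doublets kept, equal weight per cell, TMM scaling and cells without Mki67 or Top2a. The count of 3 members in WT Eomes progenitors was 1 with thinned cells.

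Over all cells, in cells without Mki67 or Top2a the log2 ratio of ShhN over WT was 0.019 for Cdkn1a, -0.30 for Cdkn1c, 0.45 for Cdkn2c and 0.15 for Cdkn2d. At the WT mix of classes and dividing cells it was -0.30 for Cdkn1c, 0.33 for Cdkn2c and 0.21 for Cdkn2d. With TMM scaling, which moved ratios by 0.13 in Eomes progenitors and 0.09 over all cells, it was 0.26 for Cdkn1b, -0.29 for Cdkn1c and 0.53 for Cdkn2d, and with equal weight per cell it was 0.62 for Cdkn1a. In cells without Mki67 or Top2a, Cdkn2c reversed to -0.22 in Eomes progenitors and -0.19 in newborn neurons. The cause was not tested, except that the mix of dividing cells is fixed by construction in the weighted values. Leaving out the ShhN cell with most UMIs of a gene, the weighting, the Ptprz1 gate and the restriction to cells without Mki67 or Top2a were chosen after the data were seen. Fewer than 50 UMIs were found for Cdkn1a in radial glia and migrating neurons, and for Cdkn2c in migrating, upper layer and deep layer neurons.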
